A study of Mus musculus with 4 samples.

Results

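Transthyretin (Ttr) and 9 other genes associated with the choroid plexus and the ependyma were followed in the dentate gyrus of the mouse hippocampus. The genes were Ttr, Folr1, Kl, Igf2, Igfbp2, Ace, Foxj1, Cdkn1c, Car12 and Col9a3. Every probe set to which the array annotation gives 1 of these symbols and no other gene was taken. This gave 15 probe sets of 10 genes, out of 12422 probe sets that are not controls and 8251 genes that the annotation names. The series as used here is 4 single-channel arrays of total RNA from young male C57BL/6J mice that were handled by the experimenter and otherwise left untreated. Their RNA was taken at 1, 2, 4 and 6 h, counted from the last shock given to other mice of the study, which were not analysed here. Each hour has 1 array, so a difference between hours has no replicate error and no p-value. The number of mice behind an RNA sample, and any pooling, is not in the labels.

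The members were chosen by values of these same arrays: the level of Ttr over the 4 hours and the slopes of a choroid plexus gene list had stood out. The values over the hours are therefore given as a description. The limma call for the slope of Ttr is quoted only because it is among those values, and none of them supports anything about the genes as a group. Intensity is the brightness of a probe set on a linear scale, and it does not rank transcript levels between genes. In these tissue samples, fewer cells of a type and less RNA per cell cannot be told apart.

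The choroid plexus is a folded epithelium over a vascular core that hangs in the brain ventricles, beside the hippocampus in the lateral ventricle, and secretes cerebrospinal fluid. Ependymal cells line the ventricles and move the fluid with motile cilia. The epithelium is known for very high transthyretin expression and for passing folate, hormones and ions between blood and fluid. Several of the genes are also made elsewhere: Igf2 and Igfbp2 in the leptomeninges, Ace in endothelium and Kl in neurons.

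The arrays had medians of 169 to 184. The 1 h array stood apart from the others: 528 probe sets differed at least 2-fold from the mean of the other 3 arrays, against 206 to 253 for the later arrays. The ratio of the 3' to the 5' probe set of the control transcript Gapdh was 4.88 at 1 h and 1.13 to 1.33 later. That of beta-actin was 2.51 at 1 h and 1.83 to 2.20 later. Counts at 6 h against 1 h are therefore given beside those at 6 h against 2 h, and the part of RNA quality in them was not tested.

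A floor of 16.4, the 10th percentile of all non-control values, was set under the intensities before log2 was taken. A probe set was kept for counts when its mean log2 intensity reached 6.66, the 40th percentile. The filter kept 7453 of the 12422 probe sets. It kept 10 of the 15 member probe sets, 1 for each of the 10 genes, and 5 lay below it. A probe set that is bright at only some hours can pass on those alone, so counts over the 10 are no support for a difference.

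Ttr, which makes the carrier of thyroxine and of the retinol-binding protein complex, had the widest range of the members. Its single probe set, 95350_at, read 225, 444, 1258 and 3009 at 1, 2, 4 and 6 h. Each hour was higher than the one before it. The steps were 1.98-fold at 2 h over 1 h, 2.84-fold at 4 h over 2 h and 2.39-fold at 6 h over 4 h. Ttr was 13.4-fold higher at 6 h than at 1 h, and 6.78-fold higher at 6 h than at 2 h, so the difference did not rest on the 1 h array. By brightness it stood at the 54.6th percentile of the non-control probe sets at 1 h, at the 69.2nd at 2 h, at the 88.0th at 4 h and at the 95.2nd at 6 h. In limma, the line through the 4 arrays climbed by 0.74 ± 0.05 (SE) log2 units each hour. Without the 1 h array the slope was 0.69.

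That slope was the highest of the 7453, and Ttr was the one probe set (0.0134% of those fitted) whose positive slope passed a Benjamini-Hochberg threshold of 0.05 in limma. This is among the values that led to the choice of the members, and nothing is read from it. A step of at least 1.5-fold at each of the 3 intervals was seen in 1 of 7453 kept probe sets (0.0134%), Ttr itself. A bar of 1.5-fold was set after the values of Ttr were seen.

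Folr1, the folate receptor that carries folate across the choroid plexus, was the member closest to Ttr in shape on 1 of its 2 probe sets. On 93785_at it read 65.5, 63.1, 118 and 267 at 1, 2, 4 and 6 h. The first 2 hours were alike, and the later hours were higher. It was 4.07-fold higher at 6 h than at 1 h, 4.23-fold higher at 6 h than at 2 h and 2.27-fold higher at 6 h than at 4 h. Its slope was 0.43 ± 0.13 (SE) log2 units per hour in limma. The second probe set of Folr1, 162302_f_at, did not share this course and read 68.9, 23.0, 43.0 and 30.5. It was kept out by the filter, and the ending _f_at marks probe sets that can share sequence with related genes. The 2 probe sets of Folr1 thus disagree, and the higher late level rests on 93785_at alone.

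The distance between the shape of a probe set and that of Ttr was measured as the root mean square difference of log2 deviations from their own means. Over the 2, 4 and 6 h arrays, 93785_at of Folr1 lay at 0.31 from Ttr, where the median over 6724 kept probe sets of other genes was 1.14. No other gene lay closer over these 3 arrays. The nearest of them were Otub1 on 162225_f_at (0.35), Clcn1 (0.41), Capn1 (0.44), Per1 (0.44) and Grn on 161546_r_at (0.44). Over all 4 arrays Folr1 lay at 0.69, and the 5 nearest other genes were Capn1 (0.43), Zbtb17 (0.49), Plin2 (0.62), Stard10 (0.64) and Hmces (0.66). Capn1 was near Ttr in both, and read 72.0, 97.8, 425 and 484. Likeness over 3 or 4 arrays with no replicate is a description of these arrays. The remaining members lay farther from Ttr: over 2, 4 and 6 h the distance was 0.82 for Kl, 1.05 for Igf2 on its bright probe set and 1.17 for Foxj1.

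**Figure D1:**
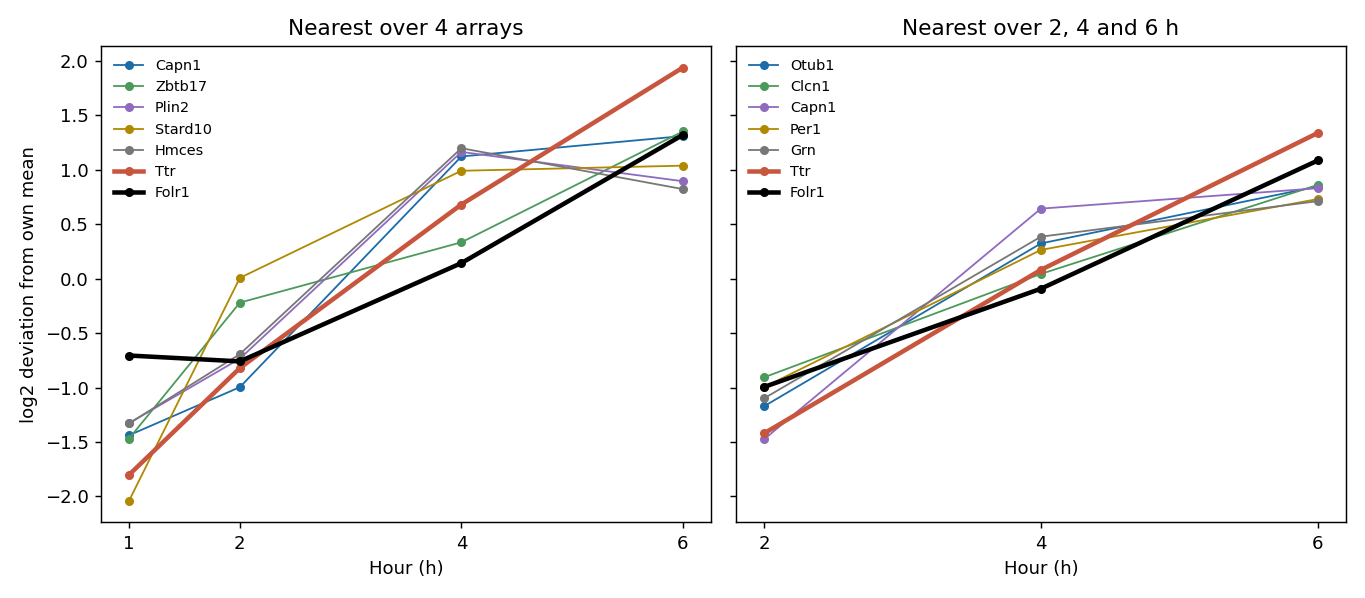
Log2 deviation from the own mean (vertical axis) against the hour (horizontal axis) for Ttr, for Folr1 on 93785_at and for the 5 other genes nearest to Ttr, over 4 arrays on the left and over the 2, 4 and 6 h arrays on the right, 1 line per probe set. On the right the lines of Folr1 and Ttr lie 0.31 apart (root mean square), while on the left Folr1 starts level at 1 and 2 h where Ttr is already higher at 2 h.

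Igf2 and Igfbp2 encode a secreted growth factor and a protein that binds it in fluid and tissue. Igf2 is an imprinted gene, expressed in most tissues from the paternal copy, and in the brain chiefly by the choroid plexus and leptomeninges. On 98623_g_at, Igf2 read 1501, 2876, 3282 and 3269 at 1, 2, 4 and 6 h. Igfbp2 read 364, 759, 830 and 663. For both genes the 1 h array was the lowest and the later hours were close to each other. Igf2 was 2.18-fold higher at 6 h than at 1 h but 1.14-fold higher at 6 h than at 2 h. For Igfbp2 those values were 1.82-fold and 0.873-fold. Without the 1 h array the limma slope was 0.05 log2 units per hour for Igf2, against 0.19 ± 0.07 (SE) with it, and -0.05 for Igfbp2, against 0.13 ± 0.09 with it. The second Igf2 probe set, 98622_at, read 28.8, 13.8, 21.2 and 13.0, under the floor on 2 of 4 arrays, although the annotation gives it the same gene and the same source sequence.

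Promoter sequences were at hand for 5 of the 10 genes, as 10 entries of 250 bases before to 50 after a start site (RefSeq, GRCm38.p6). They are shown for Igf2 and Igfbp2, which had like courses, and for Kl and Ace, which had other ones. Each line runs 5' to 3' on the gene's strand. Capitals mark matches, on either strand, to any of 7 motifs. The general ones are the TATA box, searched as TATAAA, the CCAAT box, and the GC box, searched as GGGCGG. The core bound by OTX factors, which are known regulators of the choroid plexus, was searched as TAATCC. A core bound by forkhead factors such as FOXJ1 was searched as TGTTTAC. A piece of the sites of RFX factors of ciliated cells was searched as GTTGCC, and an E-box as CACGTG.
Igf2, chr7:142658755-142659054, minus strand: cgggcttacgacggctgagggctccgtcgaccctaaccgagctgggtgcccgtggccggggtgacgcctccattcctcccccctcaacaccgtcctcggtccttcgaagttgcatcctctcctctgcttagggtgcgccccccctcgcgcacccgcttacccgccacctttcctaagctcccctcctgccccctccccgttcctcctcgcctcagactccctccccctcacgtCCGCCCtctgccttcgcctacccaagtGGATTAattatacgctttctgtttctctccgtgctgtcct
Igfbp2, chr1:72824230-72824529, plus strand: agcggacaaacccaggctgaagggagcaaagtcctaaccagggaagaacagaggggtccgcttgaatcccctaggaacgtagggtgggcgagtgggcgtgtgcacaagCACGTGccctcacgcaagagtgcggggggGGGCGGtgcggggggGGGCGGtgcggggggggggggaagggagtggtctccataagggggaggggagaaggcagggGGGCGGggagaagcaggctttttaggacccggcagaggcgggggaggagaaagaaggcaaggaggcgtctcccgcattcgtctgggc
Kl, chr5:150952357-150952656, plus strand: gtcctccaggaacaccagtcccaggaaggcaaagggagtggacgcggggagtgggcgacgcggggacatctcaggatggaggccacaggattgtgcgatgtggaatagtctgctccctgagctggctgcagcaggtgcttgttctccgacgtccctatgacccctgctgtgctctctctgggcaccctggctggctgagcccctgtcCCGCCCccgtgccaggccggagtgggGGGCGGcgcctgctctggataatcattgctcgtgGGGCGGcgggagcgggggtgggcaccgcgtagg
Ace, chr11:105967698-105967997, plus strand: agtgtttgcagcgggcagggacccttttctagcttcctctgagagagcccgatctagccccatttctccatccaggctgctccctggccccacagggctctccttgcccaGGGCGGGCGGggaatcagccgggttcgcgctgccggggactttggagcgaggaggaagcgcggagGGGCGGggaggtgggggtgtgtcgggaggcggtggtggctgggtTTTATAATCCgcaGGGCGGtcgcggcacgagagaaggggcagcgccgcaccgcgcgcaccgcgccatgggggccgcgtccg

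The 4 windows shown held 64.7% G and C for Igf2, 67.0% for Igfbp2, 67.3% for Kl and 69.7% for Ace, against a median of 52.7% over all 32851 promoters of this length. For Igf2, Igfbp2 and Ace the window shown is the richest of the gene in G and C. Those not shown held 52.3%, 49.7% and 63.3% for Igf2, 57.3% for Igfbp2, 59.0% for Ace and 58.3% for Car12, so 2 windows of Igf2 lay below that median. GGGCGG was in 6 of the 10 member windows, against 35.7% of all promoters. TAATCC was in 2 of the 10, the Igf2 and Ace windows shown, against 7.06% of all. In the Ace window it overlaps the TATA box, which is the 1 match to TATAAA among the 10 (13.6% of all promoters). CACGTG was in the Igfbp2 window alone (7.15% of all), and CCAAT in 2 windows not shown (37.4% of all). TGTTTAC (3.65% of all) and GTTGCC (12.5% of all) were in 0 of the 10. Igf2 has 3 more entries, Igfbp2 1 more and Ace 1 more, and the array does not tell which start site was used. A match describes the letters and is not a binding site, and no match says nothing about the factor.

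Foxj1, the transcription factor that switches on the genes of motile cilia, was also low at 1 h. It read 57.7, 323, 216 and 326 at 1, 2, 4 and 6 h. The 1 h value stands well under the other 3, which lie within 1.51-fold of each other. Foxj1 was 5.64-fold higher at 6 h than at 1 h and 1.01-fold at 6 h over 2 h. Its slope was 0.35 ± 0.18 (SE) log2 units per hour in limma and 0.00 without the 1 h array.

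Kl encodes klotho, a membrane protein that acts as co-receptor for FGF23 and is shed into the fluid. It read 280, 109, 194 and 190 at 1, 2, 4 and 6 h, the highest at 1 h and the lowest at 2 h. This was the one kept member that was highest at 1 h. Kl was 0.391-fold at 2 h over 1 h, 0.679-fold at 6 h over 1 h and 1.74-fold at 6 h over 2 h. Its slope was -0.02 ± 0.13 (SE) log2 units per hour in limma, and 0.20 without the 1 h array, so the sign turned with that array.

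Ace makes the enzyme that turns angiotensin I into angiotensin II, and sits on choroid plexus epithelium and on vessels. On 160927_at it read 207, 214, 176 and 140 at 1, 2, 4 and 6 h, with the lowest value at 6 h. The difference was 0.678-fold at 6 h over 1 h and 0.656-fold at 6 h over 2 h, with a slope of -0.12 ± 0.08 (SE) in limma. The 2 dimmer probe sets of Ace lay below the filter: 101428_at read 34.9, 86.6, 44.1 and 21.6, and 161224_f_at read 49.1, 58.9, 9.90 and 12.8. All 3 probe sets were highest at 2 h, and all 3 were lower at 6 h than at 1 h.

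Car12 encodes a membrane carbonic anhydrase, an enzyme that interconverts carbon dioxide and bicarbonate, and read 339, 519, 512 and 392. Cdkn1c (p57), an imprinted inhibitor of the cell cycle that lies near Igf2 on the same chromosome, read 99.1, 146, 131 and 130. Col9a3, a chain of collagen IX, read 391, 439, 364 and 360 on 102070_at. In all 3 genes the highest value was within 1.53-fold of the lowest, and the 2 h array was the highest. Their slopes were 0.02 ± 0.07, 0.04 ± 0.11 and -0.04 ± 0.06 (SE) log2 units per hour in limma for Car12, Cdkn1c and Col9a3. A second probe set of Col9a3, 162103_i_at, below the filter, read 18.1, 84.8, 18.0 and 21.0, near the floor at every hour but 2 h.

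**Figure D2:**
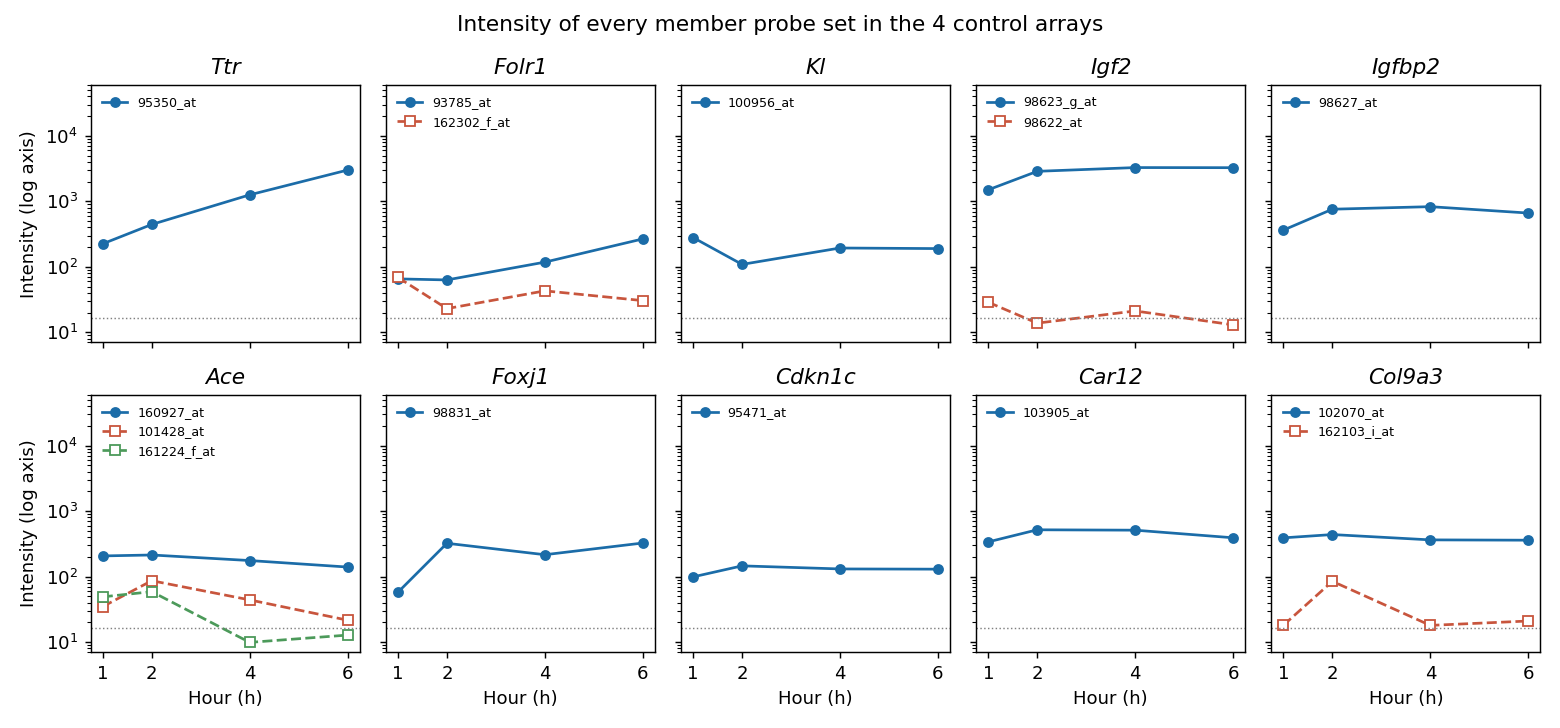
Intensity on a log axis (vertical) against the hour (horizontal) for each of the 15 member probe sets, 1 panel per gene and 1 point per array. Filled circles are probe sets that passed the filter, open squares those below it, and the dotted line is the floor of 16.4. Ttr climbs at every step up to 3009 at 6 h and Folr1 on 93785_at reaches 267, while Igf2 on 98623_g_at, Igfbp2 and Foxj1 are low at 1 h only.

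The counts over the 10 kept member probe sets were set beside those over all 7453 kept probe sets. The highest of the 4 arrays was at least 2-fold above the lowest in 6 of the 10 (Ttr, Folr1, Kl, Igf2, Igfbp2 and Foxj1), where 18.5% of all kept probe sets did this. The lowest value was at 1 h in 6 of the 10, where 30.5% of all had theirs. At 2 h against 1 h, 2 of the 10 were at least 2-fold higher (6.35% of all) and 1 was lower (3.45% of all). At 4 h against 1 h, 4 were higher (5.68% of all) and 0 lower (2.74% of all). At 6 h against 1 h, 4 were higher (Ttr, Folr1, Igf2 and Foxj1; 5.69% of all) and 0 lower (3.65% of all). The members were chosen with these values known, so nothing is read from the excess.

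Without the 1 h array, Ttr and Folr1 alone of the 10 were past 2-fold. At 4 h against 2 h, 1 of the 10 was at least 2-fold higher, Ttr (2.47% of all), and 0 were lower (2.08% of all). At 6 h against 2 h, 2 were higher, Ttr and Folr1 (1.66% of all), and 0 lower (2.40% of all). At 6 h against 4 h, the same 2 were higher (1.49% of all) and 0 lower (2.35% of all). By the difference at 6 h over 2 h, Ttr ranked 3 and Folr1 ranked 13 of the 7453. With no filter, 3 of the 15 were at least 2-fold lower at 6 h than at 2 h (8.52% of 12422 probe sets), 2 of Ace and 1 of Col9a3, and 2 were lower at 6 h than at 1 h (11.4%), 1 of Folr1 and 1 of Ace. The kept probe sets of Igf2, Igfbp2, Foxj1, Cdkn1c, Car12 and Col9a3 differed by less than 1.5-fold between 6 h and 2 h.

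**Figure D3:**
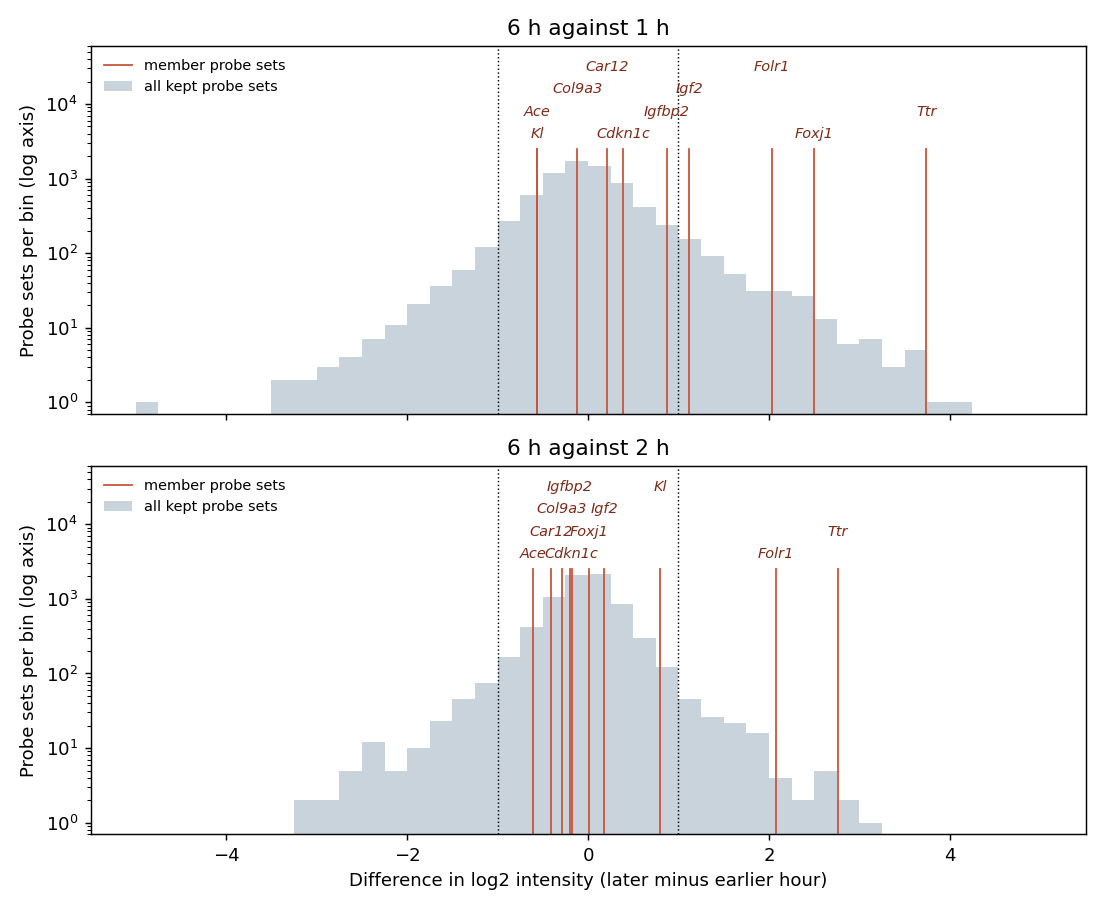
Number of kept probe sets on a log axis (vertical) by their difference in log2 intensity (horizontal), at 6 h against 1 h above and at 6 h against 2 h below. Grey bars are all 7453, red lines the 10 kept member probe sets by gene, and dotted lines 2-fold in each direction. Ttr, Folr1, Foxj1 and Igf2 lie beyond 2-fold above, and Ttr and Folr1 below.

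Slopes were positive in 7 of the 10 kept member probe sets, where 46.5% of all kept probe sets had positive slopes. The median slope was 0.09 log2 units per hour over the 10, against -0.01 over the 7453. Without the 1 h array 5 of the 10 were positive and the median was -0.02. The signs of Igfbp2, Cdkn1c, Car12 and Kl turned without that array, while those of Ttr and Folr1 did not. Set against its own mean on the log2 scale, the median member stood at -0.53, 0.20, 0.16 and 0.07 at 1, 2, 4 and 6 h, against 0.04, 0.01, 0.01 and -0.00 over all kept probe sets. Leaving out Ttr, it was -0.35, 0.22, 0.14 and 0.05. Foxj1, Folr1 and, by a small margin, Cdkn1c lay under the level of the filter at 1 h and passed it through later hours. A low median at 1 h is therefore in part built into the choice.

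Other genes of the choroid plexus epithelium were mostly dim on these arrays. Of 48 listed, 26 had 33 probe sets named by 1 gene, of which 11 passed the filter. Their median log2 deviation was 0.01, -0.08, 0.08 and 0.11 at 1, 2, 4 and 6 h. At 6 h against 1 h, 0 of the 11 were at least 2-fold higher (5.69% of all kept probe sets) and 1 was lower (3.65% of all), the secreted factor Bmp6 (164, 105, 143 and 62.5 on 161028_at). At 6 h against 2 h, 0 were higher (1.66% of all) and 0 lower (2.40% of all). Counts this small over 11 probe sets do not stand apart from those shares. Slc12a2, a sodium, potassium and chloride cotransporter, read 740, 995, 561 and 824, and Slc4a2, an anion exchanger, 329, 510, 542 and 470. Car14, a further membrane carbonic anhydrase, read 278, 314, 308 and 348. The homeobox gene Msx1 read 536, 410, 494 and 381. The other 22 of the 33 lay below the filter, among them both probe sets of the water channel Aqp1 (32.7, 165, 133 and 77.1, and 7.80, 12.1, 11.0 and 16.5). Below the filter, Calml4, a calmodulin-like gene, was higher at the later hours (20.2, 21.0, 124 and 118), as was Slc4a5, a bicarbonate cotransporter of the choroid plexus (6.70, 13.9, 36.7 and 35.0, under the floor at 1 and 2 h). Both were named after their values were seen.

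The ependymal cilia list had 17 probe sets of 14 genes, 6 of them kept. Their median deviation was -0.06, -0.09, 0.18 and -0.04 at 1, 2, 4 and 6 h. At 6 h, 0 of the 6 were at least 2-fold higher than at 1 h (5.69% of all) and 1 was lower (3.65% of all), the intermediate filament gene Vim (187, 107, 132 and 66.2), and none was 2-fold apart from 2 h. Rsph1, a part of the radial spoke of motile cilia, read 1261, 1203, 1170 and 1185 on 160599_r_at. The low 1 h level of Foxj1 was not seen on this 1 probe set, which does not speak for the list. Below the filter, courses differed between cilia genes. Spa17 was lowest at 1 h (28.3, 50.2, 57.1 and 46.5), while Rfx2 was highest there (116, 94.6, 47.3 and 32.2). Both were named after their values were seen.

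Markers of neighbouring tissues were followed the same way. The meningeal and fibroblast list (15 kept) had median deviations of 0.02, -0.04, 0.37 and -0.17, highest at 4 h. At 6 h against 1 h, 0 of the 15 were at least 2-fold higher (5.69% of all kept probe sets) and 2 were lower (3.65% of all). Between 6 h and 2 h, 0 of the 15 were 2-fold apart. Ptgds, a prostaglandin synthase abundant in leptomeninges, read 5676, 12282, 14999 and 8655 on 102105_f_at. Its other probe sets also peaked at 4 h but differed less at 2 h over 1 h (6927, 8584, 11250 and 7336 on 92545_f_at, and 8315, 8320, 13501 and 7608 on 92546_r_at). The endothelial list (10 kept) had 0.26, 0.03, -0.15 and -0.23, and 1 of its 10 slopes was positive (46.5% of all). Of these 10, 0 were at least 2-fold higher at 6 h than at 1 h (5.69% of all) and 1 was lower (3.65% of all). At 6 h against 2 h, 0 were higher (1.66% of all) and 2 were lower (2.40% of all), among them the claudin gene Cldn5 (364, 517, 401 and 241). Red blood cell genes (4 kept) had 0.11, -0.03, 0.02 and 0.07, and 3 of their 4 slopes were positive (46.5% of all). Among these was that of the beta-globin gene Hbb-b2 (434, 422, 437 and 466). The exception was Hba-a1, an alpha-globin gene (3154, 2469, 3397 and 1931). None of the 4 was 2-fold apart between 6 h and 1 h or between 6 h and 2 h. The granule cell list (8 kept) had -0.10, -0.06, -0.03 and 0.14, and 6 of its 8 slopes were positive (46.5% of all). Its defining marker Prox1 read 71.6, 278, 155 and 232. It was the 1 of the 8 at least 2-fold higher at 6 h than at 1 h (5.69% of all), and 0 were lower. Between 6 h and 2 h, 0 of the 8 were 2-fold apart. Calb1 read 2033, 2052, 2323 and 2375. Lct (1344, 936, 977 and 923) and Neurod1 (418, 470, 326 and 353) were lower at 6 h than at 1 h. The 8 kept probe sets of this list, markers of the labelled tissue, read above the floor on every array, which the filter favours. Below the filter, 161892_r_at of Dsp was under the floor on 3 arrays and Trpc6 on 2. The summed intensity of the kept and dim probe sets of the choroid plexus list was 4976 to 5367 over the arrays. That of the meningeal list was 27712 to 47330, most of it from the 3 probe sets of Ptgds, and sums of different lists are not compared. Neither the median nor the sum of a list measures the amount of a tissue in a sample. The part of other tissue in the levels of Ttr and Folr1 was not tested.

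**Figure D4:**
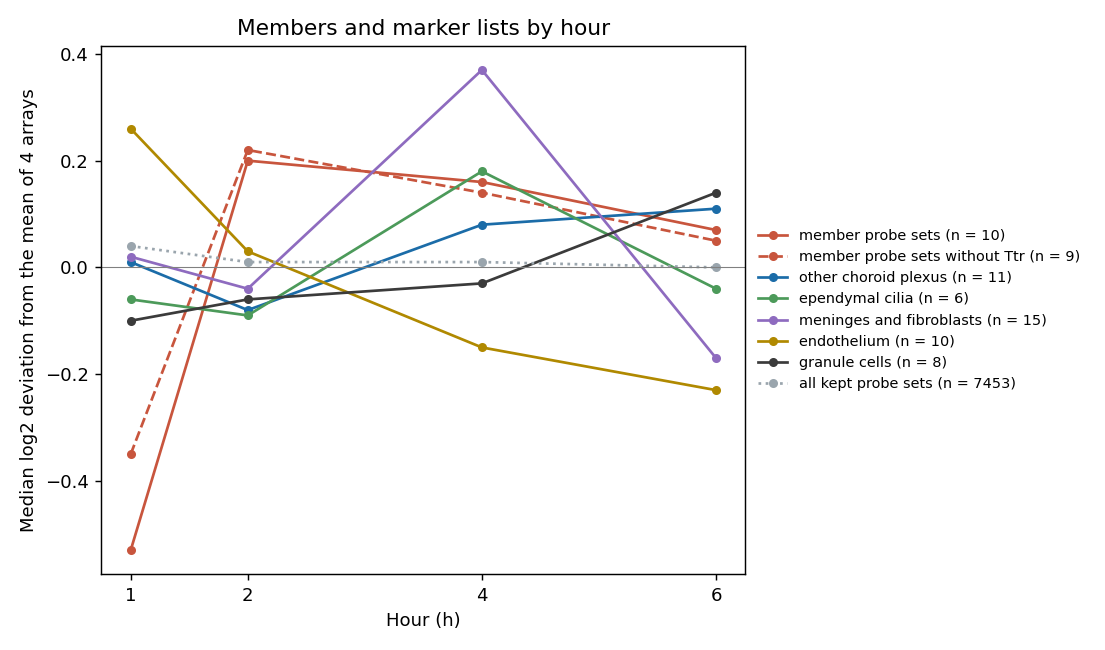
Median of the log2 deviations from each probe set's own mean (vertical axis) against the hour (horizontal axis) for the kept member probe sets, with and without Ttr, for 5 marker lists and for all kept probe sets, 1 point per array and list. The members start at -0.53 at 1 h, stand above the 5 marker lists at 2 h (0.20) and lie within their range at 4 and 6 h. The line of the other choroid plexus list stays between -0.08 and 0.11, but holds only the 11 of its 33 probe sets that passed the filter.

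Partners of the members were read from lists by pathway. Beside each count stands that over all 7453 kept probe sets, of which 5.69% were at least 2-fold higher and 3.65% lower at 6 h than at 1 h, and 1.66% higher and 2.40% lower at 6 h than at 2 h. These lists hold 2 to 19 kept probe sets, so a count of 0 to 3 is given with no reading. In the thyroid hormone and retinol list (10 kept), 2 were at least 2-fold higher at 6 h than at 1 h (5.69% of all) and 0 lower. These were the retinoid receptor gene Rxra (82.3, 226, 260 and 256 on 92235_g_at) and Crym, which binds thyroid hormone in the cytosol (694, 1294, 1100 and 1429). Both were low at 1 h and level later, but the second kept probe set of Rxra was flat (558, 540, 494 and 568 on 92234_at). The thyroid hormone receptor gene Thra read 13070, 15717, 15871 and 15334 on 92348_at, and Dio2, which activates the hormone, 1840, 1832, 1399 and 1398. Neither of these probe sets followed Ttr. The second kept probe set of Thra, 99077_at, was somewhat higher at 4 and 6 h (269, 307, 402 and 395). Between 6 h and 2 h, 0 of the 10 were 2-fold apart.

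In the insulin-like growth factor list (8 kept), 2 were at least 2-fold higher at 6 h than at 1 h (5.69% of all) and 0 lower. At 6 h against 2 h, 0 were higher and 1 was lower (2.40% of all), the binding protein gene Igfbp7 (114, 158, 116 and 77.4). Igfbp4 read 47.9, 362, 140 and 323 on 101571_g_at, and Igfbp6 166, 206, 572 and 364, both binding proteins. The ligand Igf1 read 1047, 1376, 1346 and 1212 and the receptor Igf1r 1845, 846, 1312 and 1474. This probe set of Igfbp4 was low at 1 h like Igfbp2, while the second kept one differed less (302, 362, 515 and 473 on 94222_at). Igfbp6 was highest at 4 h.

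In the angiotensin list (5 kept), 1 was at least 2-fold higher at 6 h than at 1 h (5.69% of all), the peptidase gene Anpep (49.6, 143, 235 and 104), and 0 lower. Between 6 h and 2 h, 0 of the 5 were 2-fold apart. The receptor gene Mas1 read 477, 1171, 994 and 842. None of the 9 kept probe sets of folate genes, the 4 of carbonic anhydrases, the 3 of the klotho and FGF list, the 4 of cyclin-dependent kinase inhibitors and the 2 of cartilage-type collagens was 2-fold apart between 6 h and 1 h. Between 6 h and 2 h, 1 of these was, 94881_at of Cdkn1a (p21), which was lower at 6 h (2.40% of all). Cdkn1a read 120, 279, 161 and 62.6 on it, and 125, 191, 97.1 and 178 on its other kept probe set, 98067_at. Car2, the cytosolic carbonic anhydrase, read 3885, 4297, 3717 and 4024. The FGF receptor gene Fgfr1, a partner of klotho, read 492, 799, 809 and 665 on 97509_f_at. Col9a2, a second chain of collagen IX, read 509, 416, 572 and 378.

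Imprinted genes other than Igf2 and Cdkn1c had 19 kept probe sets, of which 3 were at least 2-fold higher at 6 h than at 1 h (5.69% of all) and 0 lower. These were Slc22a18, a transporter gene (56.0, 152, 106 and 137), Meg3 and Nnat. Meg3, a non-coding RNA, read 151, 793, 1369 and 600 on 160172_at, and Nnat, neuronatin, 713, 2627, 2062 and 2477. Like Igf2, both were low at 1 h on these probe sets, but the second kept one of Meg3 was not (480, 519, 656 and 447 on 160173_at). Between 6 h and 2 h, 0 of the 19 were 2-fold apart. Ndn (necdin) read 4541, 5481, 4751 and 5255 on 101059_at and 1708, 3146, 3069 and 3240 on 94811_s_at.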

How the data were processed

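Total RNA of the dentate gyrus was measured on 4 single-channel arrays, 1 per hour. The authors deposited intensity values per probe set on a linear scale; their processing is not stated in the sources used here. All 4 arrays form 1 group of handled controls. Gene names came from the array's annotation, and the other lists' symbols were updated through Entrez identifiers (GRCm38.p6). Of 12488 rows, 66 controls were left out, and exactly 1 gene named 10833 of the rest. Values under 16.4 were set to it, log2 was taken, and 7453 probe sets were kept. Slopes were fitted on all of them with limma 3.58.1 in R 4.3.3 (lmFit, eBayes with a trend), with 2 residual degrees of freedom. The code of the fit was tested on simulated data with the same noise on every array. The 1 h array here stood apart, so that test says nothing about the member slopes. Other arithmetic used Python 3.11.15.

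The members, lists and settings were chosen with earlier results of these data known. Named besides the members are the 5 nearest to Ttr. From each list, genes were taken from the brightest and those of largest difference at 6 h against 1 h. Only some of these list genes are shown, and no fixed rule chose among them. Aqp1, Calml4, Dsp, F5, Hbb-b2, Htr2c, Rfx2, Slc22a18, Slc4a5, Spa17, Tekt1, Trpc6 and the second probe sets of named genes were chosen after their values were seen. The number of arrays limits the precision. Alternatives were scaling, floor, filter, time scale and leaving out each array.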

Additional observations from a re-analysis of the deposited data

Results flagged for a closer look

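Among 24 probe sets examined (the 15 of the members and the 9 nearest to Ttr), 2 had 1 array far from the other 3 by Dixon's ratio, the gap to the nearest array over the whole range on the log2 scale. Chance gives about 1 in 20 for independent values with a normal spread. That rate does not hold here, since 9 probe sets were picked by likeness to Ttr and values under the floor were set to it. The ratio is given to describe the arrays, not as a test of the members. For Igf2 on 98623_g_at the 1 h array, at 1501, gave a ratio of 0.83, just past the 95% critical value. For Col9a3 on 162103_i_at the 2 h array, at 84.8, gave 0.90; the other 3 arrays of that dim probe set lay between 18.0 and 21.0.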

How the results depend on the processing

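Scaling the arrays to the same median, quantile normalization, a floor at the 5th percentile and a pseudocount of 16 left the counts and the slope of Ttr close to the values reported (slopes of 0.72 to 0.76 log2 units per hour in limma). When dim probe sets were all retained, the median member slope was -0.02, 2 member probe sets were at least 2-fold lower at 6 h than at 1 h and 3 lower at 6 h than at 2 h, since 5 dim probe sets enter. A filter at the 60th percentile left 5 member probe sets, those of Ttr, Igf2, Igfbp2, Car12 and Col9a3. Folr1 and Foxj1 were among those it removed. Of the 5, 4 slopes were positive, 2 probe sets were 2-fold higher at 6 h than at 1 h and 1 at 6 h than at 2 h. The shares over all probe sets at that filter were not computed. On the log2 of the hour the slope of Ttr was 1.43 and the median 0.23 per doubling of the hour. Leaving out each array in turn gave 5 to 7 positive slopes, a median of -0.02 (without the 1 h array) to 0.24 (without the 6 h array) and a Ttr slope of 0.69 to 0.82. Set against the averaged 2 h and 4 h values, an alternative added after seeing the data, 2 members were 2-fold higher at 6 h (Ttr and Folr1; 0.872% of all kept probe sets). Of 85 other slopes per hour under alternatives, 77 moved by less than 1 SE. As rounded, 4 changed sign, all 4 without the 1 h array. With arrays scaled to the same median, the slope of Kl rounded to 0.00 but was just positive. Under that setting 8 of 10 slopes were positive. Slopes on the log2 of the hour have another unit and were not counted here. Levels near the floor of 16.4 have no order, and each hour has 1 array.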

Other observations

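Like Calml4 and Slc4a5, the dim gene Tekt1, a tektin of ciliary microtubules, was low at both early hours, with 12.5, 18.1, 65.6 and 58.0 at 1, 2, 4 and 6 h. It lay below the filter, at intensities where 1 array gives little precision, and was named after its values were seen. Other dim genes went elsewhere: the coagulation factor gene F5 read 13.7, 42.6, 66.7 and 17.5, and Htr2c, a serotonin receptor gene, 5.20, 48.5, 2.40 and 7.50.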
